A study of Homo sapiens with 12 samples.

Results

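The calcium/calmodulin-dependent protein kinase (CaM kinase) genes were followed in K562 cells, a human chronic myeloid leukemia line with erythroid features, after inhibition of the deubiquitinase USP7 with the small molecule FT671. The set held 9 of the 60609 genes listed: CAMKV, CAMK1, CAMK1D, CAMK2B, CAMK2D, CAMK2G, CAMK4, CAMKK1 and CAMKK2. The set was chosen by the rise of CAMKV after FT671 in these same libraries, so the values of CAMKV are given as a description without a test, and CAMKV enters no count. RNA-seq was available for 3 DMSO-treated and 3 FT671-treated cultures (10 μM, 48 h). The study describes 3 independent experiments with DMSO or FT671 treatment, and the labels do not say which libraries came from the same experiment. Both groups were of the same established line, and total counts were between 4555220 and 14250500 per library.

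CaM kinases read out cytosolic calcium. Calcium binds calmodulin, and the loaded calmodulin relieves the autoinhibition of the kinases. CAMKK1 and CAMKK2 are upstream kinases that phosphorylate CAMK1 and CAMK4, and CAMKK2 also acts on AMPK, whereas CAMK2 subunits assemble into a ring that can phosphorylate itself. CAMKV is a pseudokinase: it keeps the kinase fold and binds calmodulin but lacks detectable kinase activity, and it is best known from synapses in the brain.

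The sequences upstream of the starts of the 4 genes on which the results turn are shown because these promoters differ in base composition. Each is the 250 bases before a RefSeq transcription start (GRCh38.p14), on the strand of the gene, which is the minus strand in all of them, with CG dinucleotides in capitals. The windows are chr3:49869907-49870156 for CAMKV, chr3:9769948-9770197 for CAMK1, chr10:73874556-73874805 for CAMK2G and chr12:121296710-121296959 for CAMKK2.
CAMKV: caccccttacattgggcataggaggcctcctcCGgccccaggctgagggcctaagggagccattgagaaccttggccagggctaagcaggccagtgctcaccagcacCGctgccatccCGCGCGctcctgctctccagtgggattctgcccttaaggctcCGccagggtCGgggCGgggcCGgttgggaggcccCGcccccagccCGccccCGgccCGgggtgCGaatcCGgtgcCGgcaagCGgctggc
CAMK1: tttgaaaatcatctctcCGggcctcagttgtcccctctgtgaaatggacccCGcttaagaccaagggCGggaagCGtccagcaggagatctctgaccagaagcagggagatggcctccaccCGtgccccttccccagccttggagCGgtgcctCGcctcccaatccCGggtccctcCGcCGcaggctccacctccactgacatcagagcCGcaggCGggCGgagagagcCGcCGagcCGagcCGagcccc
CAMK2G: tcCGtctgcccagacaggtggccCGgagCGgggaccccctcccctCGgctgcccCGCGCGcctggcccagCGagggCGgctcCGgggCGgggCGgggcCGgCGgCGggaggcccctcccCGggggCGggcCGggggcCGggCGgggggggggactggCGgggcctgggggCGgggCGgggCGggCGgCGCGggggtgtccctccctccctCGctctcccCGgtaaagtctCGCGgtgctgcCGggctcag
CAMKK2: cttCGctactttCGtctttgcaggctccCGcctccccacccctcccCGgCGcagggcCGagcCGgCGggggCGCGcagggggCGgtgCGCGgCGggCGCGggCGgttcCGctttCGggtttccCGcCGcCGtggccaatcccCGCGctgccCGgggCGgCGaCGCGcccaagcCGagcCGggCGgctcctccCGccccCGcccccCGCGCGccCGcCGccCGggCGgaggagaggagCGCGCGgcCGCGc

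The window of CAMKV held 17 CG dinucleotides, as did that of CAMK1, and both stood at percentile 62.1 of all 35116 windows, whose median was 11. That of CAMK2G held 32 (percentile 91.2) and that of CAMKK2 held 46 (percentile 99.6). The GC box GGGCGG, searched on both strands and itself holding a CG, matched 3 times in CAMKV, 2 times in CAMK1, 6 times in CAMK2G and 8 times in CAMKK2, and 42.6% of all windows held at least 1 match. Neither the CRE half-site TGACG (in 21.2% of all windows) nor the GATA motif AGATAA (in 9.17%) was found in any of the 12 windows of the 9 genes. These matches describe letters in these windows alone.

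CAMKV (ENSG00000164076) lies on chromosome 3 from 49857988 to 49869935, on the minus strand. In DMSO-treated cells it had 3, 5 and 1 counts, or 0.207, 0.457 and 0.184 CPM (counts scaled to a common library total with TMM factors). In FT671-treated cells it had 13, 22 and 39 counts, or 2.88, 3.96 and 3.47 CPM. Every treated library was above every control library, and the mean moved from 0.283 ± 0.151 to 3.44 ± 0.54 CPM (SD, n = 3 per group).

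The fitted log2 fold change of CAMKV was 3.51 (SE 0.388), and 3 of the 13895 genes tested had a larger one. Because the control counts are so few, the size of the ratio is loosely fixed. The 9 against 74 summed counts gave a ratio of 11.9 with a 95% exact binomial interval from 5.95 to 27.1. That interval covers counting error only and leaves out the variation between replicates. CAMKV was chosen for its rise, so the ratio can be too high, and the interval is no test of it. The smallest level regarded as detectable, 3 counts, was between 0.207 and 0.664 CPM per library, and among the controls DMSO replicates 1 and 2 reached it. CAMKV passed the filter on low counts through its treated libraries alone. In a bulk sample, a change in the share of cells with CAMKV transcript and a change in transcript per cell cannot be told apart.

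**Figure D1:**
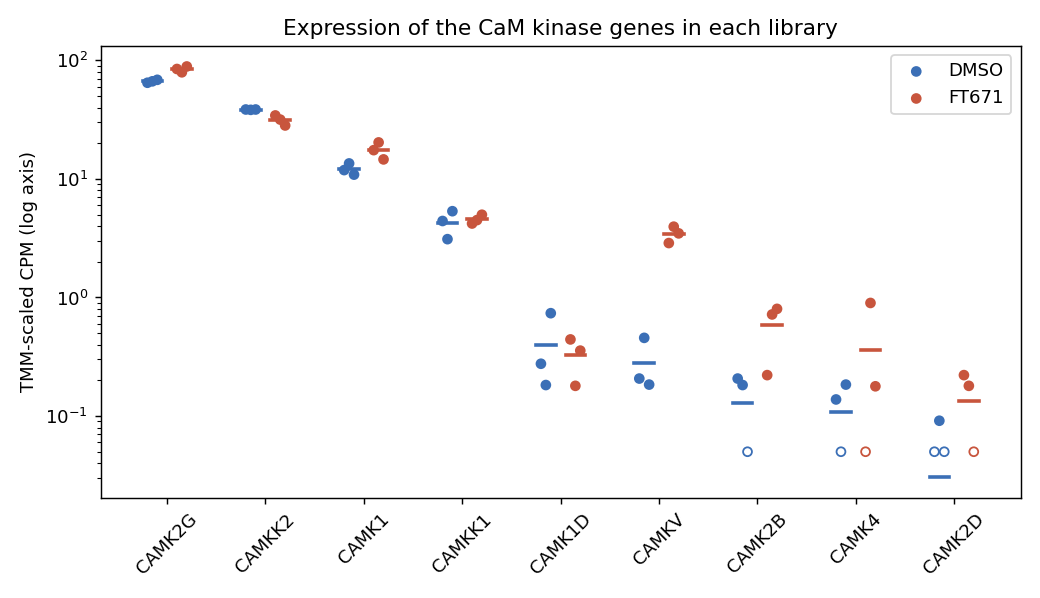
TMM-scaled CPM (log axis) of the 9 CaM kinase genes in 3 DMSO-treated (blue) and 3 FT671-treated (red) libraries, with the group means as bars and libraries at 0 counts as open circles placed at the bottom of the axis. CAMKV moved from a mean of 0.283 to 3.44 CPM, while CAMK2G, CAMKK2 and CAMK1 stayed between 10.9 and 88.8 CPM in every library.

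No exon of another annotated gene overlaps those of CAMKV, and the RNA gene in its body, RN7SL217P, had 0 counts in every library. Only genes whose whole body lies within 200 kb were read. Among them, the nearest neighbour of CAMKV with transcripts was TRAIP, a ubiquitin ligase that acts at replication forks. It lies 1.41 kb beyond the 3′ end of CAMKV on the same strand. TRAIP rose from 13.0 ± 1.18 to 21.7 ± 3.37 CPM (log2 fold change 0.74, SE 0.139, edgeR adjusted p = 5.33e-04). APEH, an enzyme that removes acylated amino acids from peptides, also rose (0.30, adjusted p = 0.00350).

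MON1A (−0.65, adjusted p = 0.00125), a factor of vesicle maturation, and IP6K1 (−0.55, adjusted p = 5.82e-04), an inositol phosphate kinase, fell. GMPPB, which makes GDP-mannose, fell by 0.38 on the log2 scale (edgeR adjusted p = 0.0268), a call that was lost in 6 alternatives. Among them were the omission of DMSO replicate 2 (−0.27, adjusted p = 0.130), FT671 replicate 2 (−0.31, 0.117) or FT671 replicate 3 (−0.30, 0.144). A gene length correction also lost it (−0.27, adjusted p = 0.0972). On the 5′ side of CAMKV, the receptor kinase gene MST1R, 17.1 kb away, was at 2.19 ± 0.5 CPM in DMSO-treated and 2.35 ± 0.679 CPM in FT671-treated cells, and the groups overlapped. The tested genes that lie wholly within 200 kb of CAMKV thus went in both directions, with no other log2 fold change above 0.74. Genes that extend past that distance were not read.

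**Figure D2:**
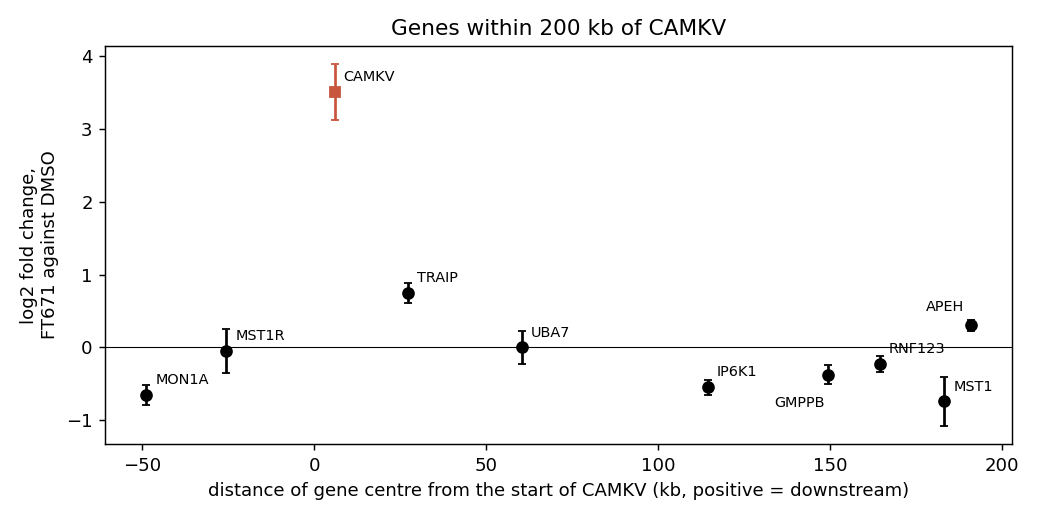
Log2 fold change (FT671 against DMSO, bars show 1 SE) of CAMKV and of neighbouring genes that passed the filter on low counts. The neighbours shown lie with their whole body within 200 kb of CAMKV. The horizontal axis gives the distance in kb of each gene's centre from the start of CAMKV, positive in the direction of transcription. CAMKV stands at 3.51 and TRAIP, the next highest, at 0.74, while MON1A and IP6K1 lie below 0.

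Of the 8 other CaM kinase genes, 4 passed the filter on low counts. At an adjusted p of 0.05, 2 of them rose, 1 fell and 1 did not pass, and among all genes tested 23.6% rose and 26.5% fell, and nothing was read from so few genes. These 4 genes had a median of 0.25 on the log2 scale, beside −0.01 over all genes tested. At 1e-05, the threshold of the study, 0 of the 4 passed by edgeR or by DESeq2, against 1.79% higher and 4.13% lower among all genes, whereas 3 had an unadjusted p under 0.05 by edgeR. The groups did not overlap for 2 genes that were higher and 1 that was lower. Over all genes, 26.8% were higher and 30.3% were lower without overlap.

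CAMK2G (ENSG00000148660, chromosome 10, 73812501 to 73874591) encodes the gamma subunit of CAMK2 and was the CaM kinase gene with the most counts. It was at 64.7, 66.6 and 68.5 CPM in DMSO-treated and at 84.6, 79.3 and 88.8 CPM in FT671-treated cells. All treated libraries were above all controls. The mean rose from 66.6 ± 1.9 to 84.2 ± 4.76 CPM (log2 fold change 0.34, SE 0.0811, edgeR adjusted p = 0.00288), and the call held in all 19 alternatives, with values from 0.30 to 0.47. An antisense transcript, CAMK2G-AS1, shares 445 of the 8353 exon bases of CAMK2G and was at 2.34 and 2.54 CPM in the DMSO and FT671 groups.

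CAMK2B and CAMK2D, which encode other subunits of the same enzyme, were barely detected. CAMK2B had 3, 2 and 0 counts after DMSO and 1, 4 and 9 counts after FT671. CAMK2D had at most 1 count in any library. The 5 and 14 summed counts of CAMK2B gave a ratio of 4.06 with a counting interval from 1.38 to 14.4. However, 2325 of its 11598 exon bases also belong to YKT6, a gene on the opposite strand. YKT6 was at 103 and 76.4 CPM in the DMSO and FT671 groups (log2 fold change −0.44, edgeR adjusted p = 6.84e-04). Whether the counting used strand is not given in the sources used here.

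Scaled by exon length, CAMK2G made up 99.8% ± 0.146 of the summed CAMK2B, CAMK2D and CAMK2G transcripts after DMSO and 99.4% ± 0.228 after FT671. The share was lower in every treated library than in every control library. The exact two-sided permutation p was 0.1, the smallest that 3 against 3 libraries can give. This difference rests mostly on the 5 and 14 summed counts of CAMK2B, to which the overlap with YKT6 applies. The share of CAMK2B was 0.142% ± 0.124 and 0.494% ± 0.265 (exact permutation p = 0.3), and that of CAMK2D was 0.0244% and 0.0866% (exact permutation p = 0.4). The sum of the 3 genes went from 7.99 ± 0.219 to 10.1 ± 0.567 CPM per kb, so that in both groups CAMK2 transcript was almost entirely CAMK2G.

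CAMK1 (ENSG00000134072, chromosome 3, 9757347 to 9769992) encodes a monomeric kinase activated by CAMKK. It was at 11.9, 13.5 and 10.9 CPM in DMSO-treated and at 17.5, 20.3 and 14.6 CPM in FT671-treated cells. The groups did not overlap, although the lowest treated library was close to the highest control. The mean rose from 12.1 ± 1.33 to 17.5 ± 2.86 CPM (log2 fold change 0.49, SE 0.152, edgeR adjusted p = 0.0155). The call was lost without DMSO replicate 1 (0.46, adjusted p = 0.0552) and without FT671 replicate 2 (0.37, adjusted p = 0.0871).

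CAMK1 shares 2175 of its 2715 exon bases with OGG1, a DNA repair gene on the opposite strand. OGG1 was itself higher after FT671, at 27.4 and 35.0 CPM in the DMSO and FT671 groups (log2 fold change 0.33, SE 0.113, adjusted p = 0.0237, lost without FT671 replicate 2 at 0.26, adjusted p = 0.117). The strand setting of the counting is not known. It is also not known whether reads in the shared bases were given to CAMK1, given to OGG1 or left out. The paralog CAMK1D had 4, 2 and 4 counts after DMSO and 2, 1 and 4 counts after FT671. Its ratio of summed counts was 1.01 with a counting interval from 0.328 to 2.95, so that no difference was detectable at this depth.

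CAMKK2 (ENSG00000110931, chromosome 12, 121237675 to 121298308), the upstream kinase that also activates AMPK, was the member that fell. It was at 38.5, 38.2 and 38.5 CPM in DMSO-treated cells and at 34.3, 31.6 and 28.2 CPM in FT671-treated cells. The controls lay within 1 CPM of each other and every treated library was below them. The mean moved from 38.4 ± 0.148 to 31.4 ± 3.05 CPM (log2 fold change −0.31, SE 0.104, edgeR adjusted p = 0.0239).

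This call was the least stable among the CaM kinase genes. It passed in 11 of 19 alternatives, each of which kept the direction, and it was lost by DESeq2 (−0.29, adjusted p = 0.0653), with a gene length correction (−0.19, adjusted p = 0.132) and without DMSO replicate 1 (−0.31, 0.0650), DMSO replicate 2 (−0.30, 0.0577), FT671 replicate 2 (−0.32, 0.0593) or FT671 replicate 3 (−0.22, 0.156).

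CAMKK1 (ENSG00000004660, chromosome 17, 3860315 to 3894891), the other upstream kinase, was at 4.42, 3.10 and 5.34 CPM after DMSO and at 4.21, 4.50 and 4.99 CPM after FT671. Its treated libraries all lay between the lowest and the highest control (log2 fold change 0.16, SE 0.234, adjusted p = 0.584). CAMK4, a nuclear kinase known from T cells and neurons, had 2, 0 and 1 counts after DMSO and 0, 5 and 2 counts after FT671. The ratio of its summed counts had an interval from 0.772 to 20.3 and gave no direction.

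**Figure D3:**
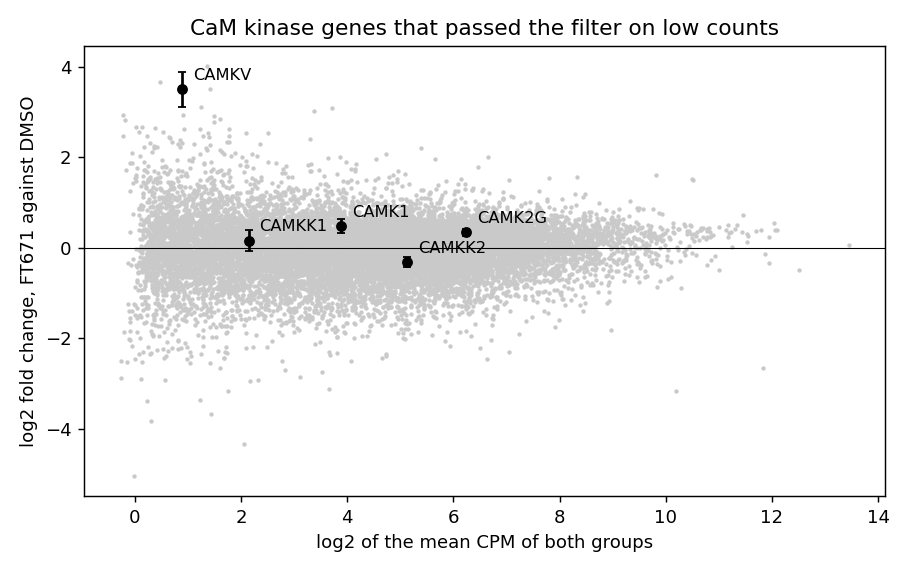
Log2 fold change (FT671 against DMSO) against the log2 of the mean CPM of both groups for all 13895 genes tested (grey) and for the CaM kinase genes that passed the filter on low counts (black, bars show 1 SE). CAMKV lies at 3.51 near the upper edge of the cloud, and CAMK1, CAMK2G, CAMKK1 and CAMKK2 lie between −0.31 and 0.49.

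Levels of different genes were compared as CPM per kb of exon. After DMSO the order was CAMK2G (7.75 to 8.21 CPM per kb over the libraries), CAMKK2 (5.33 to 5.37), CAMK1 (4.004 to 4.98) and CAMKK1 (0.418 to 0.719), and no neighbours among these 4 overlapped. CAMKV (0.051 to 0.126) came next and overlapped with CAMK1D (0.0210 to 0.0849). CAMK2B, CAMK4 and CAMK2D had means of 0.0112, 0.00789 and 0.00195 and overlapped with one another.

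After FT671 the order of the genes changed in part. CAMK1 (5.38 to 7.48 CPM per kb) stood above CAMKK2 (3.94 to 4.78), without overlap between libraries. CAMKV (0.796 to 1.10) stood above CAMKK1 (0.566 to 0.671), which restates the rise for which the set was chosen and is no separate result. CAMK2G remained the highest at 9.49 to 10.6, and CAMK2B, CAMK1D, CAMK4 and CAMK2D stayed at means of 0.0501 or less. The mean of CAMK2B was above that of CAMK1D (0.0376), the reverse of DMSO, but their treated libraries overlapped and both had few counts. The shared exons of CAMK1 and OGG1 apply to the place of CAMK1 in both orders.

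The proteins around the kinases were read from lists of known pathway genes, described by their counts of called genes beside a median of −0.01 and shares of 23.6% higher and 26.5% lower over all genes tested. Among calmodulin, its small binding proteins and the brakes on the kinases, 7 of 13 genes were tested, 4 rose and 1 fell, with a median log2 fold change of 0.22. The brake CAMK2N1, an inhibitor protein of CAMK2, was at 4.76, 5.20 and 4.24 CPM after DMSO and 13.5, 13.7 and 18.4 CPM after FT671. Its libraries were clearly apart, and the rise of 1.69 on the log2 scale (SE 0.176, adjusted p = 3.77e-06) held in all 19 alternatives, between 1.5 and 1.79. CAMK2G and its inhibitor CAMK2N1 were therefore both higher in the same libraries.

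CALM3, which encodes calmodulin, rose from 498 ± 24.0 to 580 ± 12.4 CPM (0.22, adjusted p = 0.0145), but the call was lost without DMSO replicate 1 (0.19, adjusted p = 0.0759) and without FT671 replicate 3 (0.21, adjusted p = 0.0612). CALM2, which encodes the same protein, was at 39.7 ± 12.8 and 42.0 ± 4.24 CPM (0.11, adjusted p = 0.622), and without DMSO replicate 3, its highest library, it was 0.34 and past 0.05.

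NRGN, a small protein that holds calmodulin at low calcium, rose by 0.51 (adjusted p = 0.0167), a call lost without DMSO replicate 1 (0.38, adjusted p = 0.101). The phosphatases PPM1E and PPM1F remove the activating phosphates from CaM kinases. PPM1E rose by 0.22 (adjusted p = 0.0335), which was lost in 8 alternatives, among them the omission of each library other than DMSO replicate 3. PPM1F was at 199, 201 and 178 CPM after DMSO and at 123, 115 and 114 CPM after FT671, a fall that left no overlap (−0.72, SE 0.0767, adjusted p = 4.45e-06).

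Of 22 other calmodulin-binding or related kinases, 13 were tested, 1 rose and 6 fell, with a median of −0.28. DAPK1, a calmodulin-regulated kinase of cell death, fell from 69.8 ± 6.58 to 26.4 ± 2.93 CPM (−1.41, adjusted p = 2.74e-07). PSKH1, a related kinase, fell from 21.1 ± 2.71 to 8.76 ± 3.15 CPM (−1.36, adjusted p = 4.97e-05). Phosphorylase kinase, which starts glycogen breakdown and carries calmodulin as a subunit, had 5 subunit genes tested, of which 1 rose and 2 fell. PHKG2, a catalytic subunit, rose by 0.45 (adjusted p = 0.00484) and shares 20.9% of its exon bases with CFAP119 on the opposite strand. PHKB, a regulatory subunit, fell by 0.32 on the log2 scale (adjusted p = 0.00586), a call lost with the gene length correction (−0.16, adjusted p = 0.0761).

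EEF2K, which slows translation elongation in response to calcium, was at 64.9 ± 4.68 and 70.3 ± 3.34 CPM (0.12, adjusted p = 0.285). PNCK, a relative of CAMK1, was at 4.07 ± 0.301 and 3.81 ± 0.942 CPM (adjusted p = 0.588). The remaining CaM kinase genes outside the 9, CAMK1G and CAMK2A, had 0 and at most 1 count per library.

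**Figure D4:**
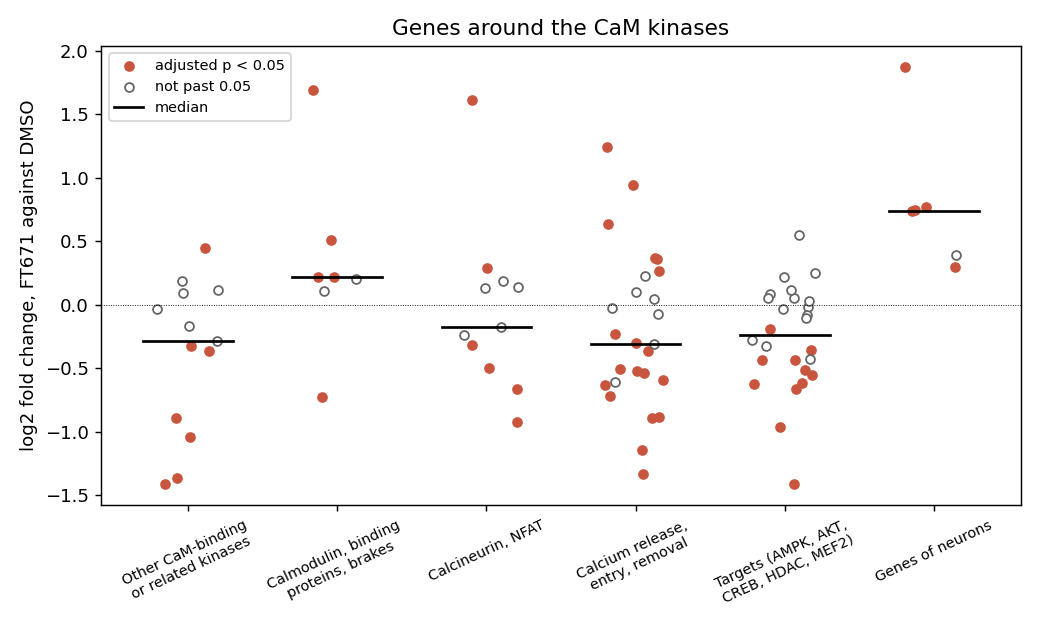
Log2 fold change (FT671 against DMSO) of each tested gene in 6 lists of genes around the CaM kinases, filled where the adjusted p is below 0.05, with the list median as a bar; TUBB3 (1.87) and AKAP5 (1.61) passed the filter through treated libraries alone. CAMK2N1 stands at 1.69 in the second list, and the median of the targets lies at −0.24 with no filled point above 0.

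In the list of calcium release, entry and removal, 26 of 36 genes were tested, 6 rose and 13 fell (median −0.30). RYR1, a release channel of the endoplasmic reticulum, rose from 7.46 ± 1.38 to 17.3 ± 3.06 CPM (1.24, adjusted p = 6.69e-05), and ITPR3, an inositol trisphosphate receptor, rose from 106 ± 7.05 to 203 ± 5.36 CPM (0.94, adjusted p = 2.95e-07). ORAI2, a subunit of the store-operated entry channel, fell from 38.8 ± 2.16 to 15.9 ± 3.11 CPM (−1.33, adjusted p = 2.25e-06). ATP2A3, a pump that refills the stores, fell from 303 ± 16.6 to 138 ± 10.3 CPM (−1.14, adjusted p = 1.10e-07).

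Calcineurin is the phosphatase that shares the calmodulin signal with the kinases, and NFAT factors are its substrates. Of 14 genes in this list, 11 were tested, 2 rose and 4 fell (median −0.18). AKAP5, a scaffold for calcineurin, had 9, 3 and 3 counts after DMSO and 7, 10 and 15 counts after FT671. AKAP5 passed the filter through its treated libraries alone, so no p is given for it, and without it 1 of 10 tested genes rose. NFATC3 rose by 0.29 (adjusted p = 0.00433), sharing 31.8% of its exon bases with a long noncoding RNA on the opposite strand. RCAN1, an inhibitor of calcineurin, fell from 27.7 ± 1.74 to 14.3 ± 2.07 CPM (−0.93, adjusted p = 3.81e-05), and NFATC2 fell from 88.3 ± 1.61 to 55.8 ± 1.49 CPM (−0.66, adjusted p = 1.30e-05).

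The list of targets of the kinases (AMPK, AKT, CREB, CRTC, class IIa HDAC and MEF2) also held STK11 and its partners, which act upstream of AMPK, and had 26 of 29 genes tested. By edgeR 0 rose and 11 fell, with a median of −0.24. By DESeq2 0 rose and 9 fell, and 2 were higher at an unadjusted p under 0.05 by edgeR. Without STK11 and its partners, 21 genes were tested, of which 0 rose and 9 fell by edgeR. STK11, the other upstream kinase of AMPK, went from 108, 107 and 95.4 CPM to 44.05, 35.6 and 38.0 CPM (−1.41, SE 0.0968, adjusted p = 1.14e-07). This fall held in all 19 alternatives, whereas that of CAMKK2, which activates AMPK by another route, held in 11.

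PRKAA1, the AMPK catalytic subunit, was at 46.0 ± 9.46 and 44.9 ± 3.67 CPM (−0.01, adjusted p = 0.935). CRTC1, a coactivator of CREB, fell from 10.5 ± 0.478 to 5.17 ± 0.727 CPM (−0.96, adjusted p = 3.44e-04). CREB1, the transcription factor phosphorylated by CaM kinases, fell from 46.3 ± 5.08 to 34.0 ± 2.77 CPM (−0.43, adjusted p = 0.00485). CREM fell by 0.35 (adjusted p = 0.0199), a call lost without FT671 replicate 2 (−0.31, adjusted p = 0.0790), by DESeq2 (−0.34, 0.0603) and with the gene length correction (−0.26, 0.0649). CAB39, a partner of STK11, fell by 0.19 (adjusted p = 0.0463), a call lost in 9 alternatives, among them the omission of DMSO replicate 1 or of any FT671 replicate.

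Since CAMKV is best known from neurons, 18 genes of neurons were read beside it. Only 6 had enough counts to be tested, with a median of 0.74. Of these, 5 rose by edgeR and 3 by DESeq2, and SYN1 did not pass by edgeR. By either tool 0 fell, and 0 were lower at an unadjusted p under 0.05 by edgeR. TUBB3, a tubulin of neurons, was at 1.003 ± 0.239 and 3.91 ± 0.877 CPM. It passed the filter (1.21 CPM) through its treated libraries alone, so no p is given for it, and without it 4 of 5 tested genes rose. TUBB3 also shares 21.3% of its exon bases with another annotated gene on the same strand. SLC17A7, a vesicular glutamate transporter, rose by 0.77 (adjusted p = 0.00569) and GAD1, which makes GABA, rose by 0.74 (adjusted p = 5.19e-04). DLG4, a scaffold of synapses, rose by 0.29 (adjusted p = 0.0386), a call lost in 7 alternatives, including without DMSO replicate 1, DMSO replicate 3, FT671 replicate 1 or FT671 replicate 2. The list was at 0 counts in every library for 7 of its genes, and its summed level went from 50.7 to 56.3 CPM after DMSO to 74.0 to 81.8 CPM after FT671.

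The identity of the cells was read from marker genes. The erythroid factor GATA1 was at 296 and 243 CPM in the DMSO and FT671 groups, the fetal globin gene HBG1, a near-identical copy of HBG2, was at 36.8 and 98.7 CPM, and HBE1, which shares 81.3% of its exon bases with another gene on the same strand, had at most 13 counts. Of 12 markers of K562, 11 were tested, 3 rose and 8 fell. Markers of T cells (summed 16.9 to 20.5 CPM after DMSO, 24.0 to 29.4 after FT671), nearly all from CD3D with CD2 at 0, of B cells (2.03 to 3.93 and 2.85 to 3.98, with MS4A1 at 0), of monocytes (58.6 to 62.3 and 76.2 to 79.1, nearly all LYZ, with CD14 at no more than 1 count) and of stroma (2.37 to 3.04 and 2.58 to 2.88, with COL3A1 at 0) were also summed. Of the 2 monocyte markers tested, LYZ rose and ITGAM fell, so the monocyte sum follows LYZ alone. ITGAM went from 7.70 ± 0.725 to 4.14 ± 1.24 CPM (−0.79, edgeR adjusted p = 0.00756). The T cell and monocyte sums were higher after FT671 together with CAMKV, and their part in its change was not tested.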

How the data were processed

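The data were RNA-seq libraries of K562 cells, 3 given DMSO and 3 given 10 μM FT671 for 48 h. Total RNA was depleted of ribosomal RNA, and the authors aligned paired-end reads to hg38 with STAR and deposited raw read counts per gene. The strand setting, annotation release and STAR version are not given in the sources used here. The histone ChIP-seq samples were not analysed here. The 60609 genes were matched to GENCODE release 44 (60295 matched).

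Genes were filtered with filterByExpr (13895 kept), scaled by TMM and compared over all 6 libraries with edgeR's quasi-likelihood test (edgeR 4.0.16, limma 3.58.1, R 4.3.3), two-sided, without covariates, with Benjamini-Hochberg adjustment over all genes tested. DESeq2 1.42.0 served as an alternative. Shares were compared by exact permutation (Python 3.11.15, scipy 1.17.1). The scripts were tested on simulated data. Replicates of a group differed by more than counting error (chi-square per degree of freedom 2.07 to 8.73), and all were counted as separate.

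The members and lists were chosen with earlier results of these data known. Named from each list were the 2 called genes with the highest and the 2 with the lowest log2 fold change, besides a fixed set (CALM2, CALM3, PRKAA1, CREB1 and EEF2K, and 1 gene that is not reported here). PNCK, CAMK1G, CAMK2A, SYN1 and the marker genes were named after their values were seen. Alternatives were other scalings, filters, gene classes, length and GC corrections, thinning, the replicate number as a block and leaving out each library. Counts without AKAP5, TUBB3, or STK11 and its partners were added after seeing the data.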

Additional observations from a re-analysis of the deposited data

How the results depend on the processing

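CAMK2G and CAMK2N1 stayed past 0.05 in all 19 alternatives. Deviations of same-numbered libraries correlated at 0.115, -0.0605 and 0.140, not all above 0.1, so the numbers were not used as pairs; whether a number marks a shared experiment is not given in the labels. With the replicate block 2 CaM kinase genes rose and 1 fell, as without it. Calls among the CaM kinase genes were 1 to 2 higher and 0 to 1 lower when 1 library was left out, and 0 lower under DESeq2, the length correction with or without the replicate block, and the GC correction with the replicate block. Genes called higher were, among other kinases (1), 3 with the length correction with or without the block and 2 with the GC correction with or without it; among calcineurin and NFAT genes (2), 1 with at least 10 counts, thinned, or without AKAP5 (which passed the filter through 1 group alone), 4 with the GC correction with or without the block, and 1 to 4 leaving out a library; among calmodulin genes (4), 2 with no filter, where 2 fell, and 1 to 6 leaving out a library. Among neuron genes (5) they were 3 under DESeq2, no filter, at least 10 counts or thinning and 3 to 5 leaving out a library. Among targets (0) they were 3 with the length correction with or without the block, 1 with the GC correction, and 0 to 1 leaving out a library. The log2 fold change of PRKAA1 turned to 0.0054 (DESeq2 size factors), 0.10 (length), 0.088 (length with block) and -0.13 to 0.13 leaving out a library. Leaving out a library, CAMKK1 ranged from -0.029 to 0.28, CALM2 from -0.038 to 0.34 and CAMK2G-AS1 from -0.26 to 0.41 (-0.0049 with length and block). Over all genes the length correction called 3810 higher and 3347 lower, against 3277 and 3687. PHKB lost its call with the length correction and SLC17A7 when thinned. The causes were not tested. CAMKV was not kept with at least 10 counts. CAMK1D, CAMK2B, CAMK2D and CAMK4 were too shallow to test.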

Other observations

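The genes whose pattern was most like that of CAMKV were found by the Euclidean distance over the 6 libraries, in log2 CPM (prior count 2) centred on each gene's DMSO mean. They were ADAM11 (distance 0.637), a cell surface protein of neurons without protease activity, PEG10 (0.698), an imprinted gene derived from a retrotransposon, JAG1 (0.884), a ligand of Notch receptors, ENSG00000280414 (0.938) and CRYAB (0.974), a small heat shock protein. ADAM11 was at 0.160 CPM after DMSO and 2.63 CPM after FT671, and JAG1 was at 0.413 and 3.36 CPM. CRYAB, the most abundant of the 5, was at 1.60 ± 0.314 and 9.76 ± 1.43 CPM. The choice fixes that these genes rose, so no test is given, and nothing on shared control follows from it.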
